A study of Phaseolus vulgaris and Phaseolus lunatus with 12 samples.

Results

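The protein families that make up the clean-leaf transcriptome were compared between lima bean, P. lunatus, and common bean, P. vulgaris. A family here is 1 value of the column that gives each gene a Pfam-style protein domain name, and families were kept where that value named at least 5 genes in the count tables of both species. This left 328 of the 642 values found in either table, with 9672 of 43997 annotated P. lunatus genes and 9877 of 29324 annotated P. vulgaris genes. The family is the unit throughout, because the gene models of the tables differ and genes were not paired across species. A single gene is given only by its place in its own species.

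Each species had 3 control libraries. The P. lunatus libraries came from plants of the variety Peladilla and the P. vulgaris libraries from the cultivar California Red Kidney. All plants were 3 weeks old and kept at 23 °C, with a day of 16 h light and 8 h dark. Control leaves were first true leaves that were detached like the treated ones but carried no spider mites (Tetranychus urticae), and they were taken at 24 h. The 6 other libraries of the series, from leaves with 50 mites per leaflet, were not used here. The labels give 1 variety or cultivar per species, no time of day and no batch, and leave it unstated if libraries of a species are separate plants. Every p-value therefore measures the spread between libraries as labelled, and species, genome, gene models and annotation cannot be told apart.

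A Pfam family collects proteins that share a stretch of related sequence, and with it often a type of chemistry or binding. The title of the series sets cyanogenic against non-cyanogenic legumes. In cyanogenic plants such as lima bean, cytochrome P450 enzymes turn an amino acid into a cyanohydrin, a UDP-glucosyltransferase stores it as a glucoside, and a beta-glucosidase releases it when tissue is crushed, after which hydrogen cyanide forms. Cyanide is detoxified by cyanoalanine synthase and nitrilases. Another leaf defence begins with lipases that free fatty acids from membranes, and lipoxygenases that oxidise them toward jasmonates and other oxylipins.

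The value compared is the share of a family, the percent of all gene counts of a library that fell on its genes. Libraries held 17255676, 13936596 and 13937826 counts in P. lunatus, and 19343807, 17283298 and 18011333 in P. vulgaris. A gene was called expressed in a library at 1 CPM or more, CPM being its counts scaled to a fixed library total. Shares are of counts and not per gene length, so the order of families by share is not an order of transcript number, and in bulk leaf RNA fewer cells of a type and less RNA per cell cannot be told apart. As a check of the tissue, 27 P. lunatus genes described as chlorophyll a/b-binding proteins took 6.0, 7.51 and 7.0% of counts. Most P. vulgaris genes are described only as hypothetical proteins, and the family column names no chlorophyll-binding or Rubisco small subunit family in either table, so the same check could not be made there. The 20 most counted genes took 11.6 ± 0.430% of counts in P. lunatus and 7.5 ± 0.356% in P. vulgaris (SD, n = 3 each; exact permutation test, two-sided, p = 0.1, the smallest that 3 against 3 libraries allow).

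The shared families together took nearly the same part of both transcriptomes. Their summed share was 35.4, 35.3 and 34.9% in the P. lunatus libraries, against 36.2, 35.7 and 35.1% in the P. vulgaris libraries. The difference of -0.468 percentage points lay within the spread of the libraries (exact permutation test, two-sided, p = 0.3). Genes with no family value took 60.8 ± 0.214% in P. lunatus and 60.1 ± 0.574% in P. vulgaris (SD, n = 3 each). Of the genes in shared families, 66.2 ± 0.808% were expressed in P. lunatus and 65.9 ± 0.333% in P. vulgaris, a difference of 0.321 points (exact permutation test, two-sided, p = 0.7).

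Families large in one species were large in the other. Across the 328 families, the log2 mean shares had a Pearson r of 0.94 and a Spearman rho of 0.945, and the log2 gene numbers a Pearson r of 0.965. Families share their libraries and are not independent, so these are descriptions. Gene numbers were equal in 104 families, greater in P. lunatus in 97 and smaller in 127. They lay within 1.5-fold of each other in 317 families and beyond 2-fold in 4. The log2 share ratio and the log2 gene-number ratio had a Pearson r of -0.0019 across the 327 families tested. With so little range in gene number, that r cannot show if shares follow it. A typical family was small, with a median share of 0.0482% in P. lunatus and 0.0513% in P. vulgaris.

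Within that common order, most families differed by more than the spread between libraries, and most of those differences were small. Counts summed per family were tested with edgeR's quasi-likelihood test, and 215 of the 327 families tested (65.7%) passed an adjusted p of 0.05. The share was higher in P. lunatus in 83 (25.4%) and lower in 132 (40.4%). This split depends on the scaling: with edgeR's TMM factors, 113 families were higher and 109 lower. The median log2 ratio, P. lunatus over P. vulgaris, was -0.09, and the median size of the log2 ratio was 0.28. In 242 families the shares lay within 1.5-fold, and 131 of these still passed the test. A difference of at least 2-fold was found in 41 families (12.5%), 17 of them higher in P. lunatus (5.2%) and 24 lower (7.34%). The groups did not overlap in 246 of 328 families (75%).

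**Figure D1:**
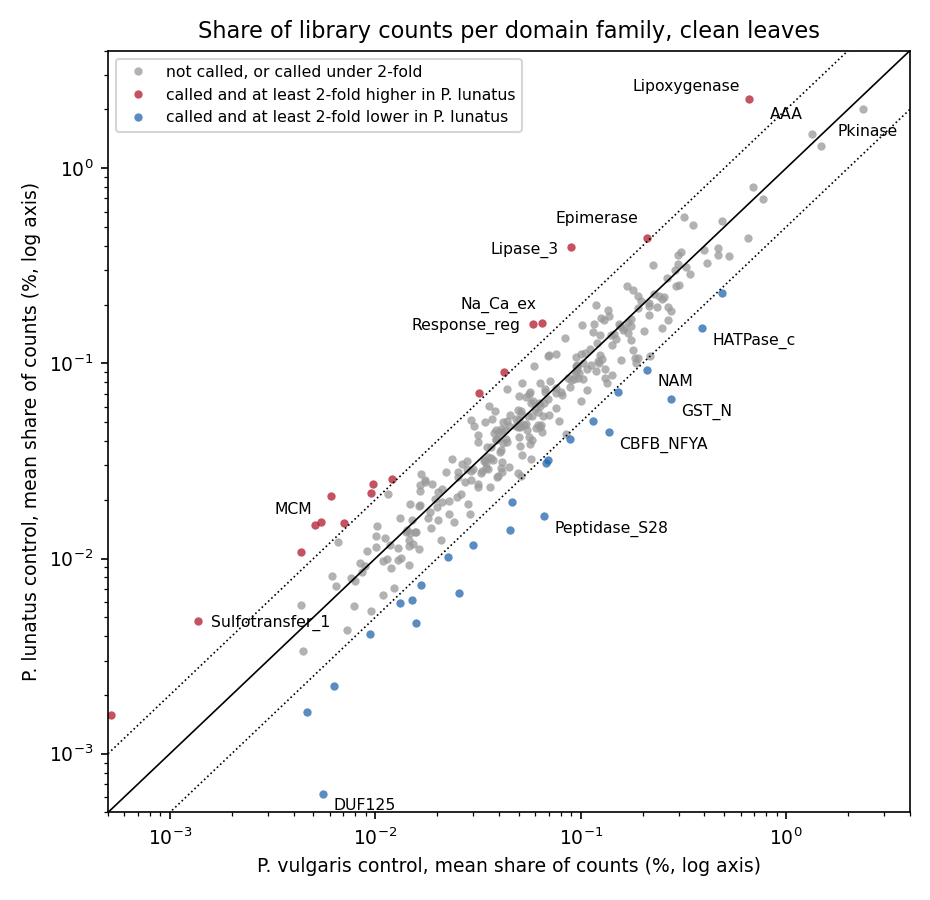
Mean share of counts of each of the 328 shared families in P. lunatus control leaves against P. vulgaris control leaves, in percent on log axes, 1 point per family, except Self-incomp_S1, which lies below the axes. The solid line marks equal shares and the dotted lines 2-fold differences. Most points lie close to the solid line (Pearson r of 0.94 for the log2 shares), and the coloured points are the 17 families called at least 2-fold higher and the 24 called at least 2-fold lower in P. lunatus.

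Among the 10 families of highest mean share over the 6 libraries, the protein kinases (Pkinase) stood first. In P. lunatus alone they came after the lipoxygenases described below. They took 2.02, 2.02 and 2.00% of counts in P. lunatus, against 2.46, 2.36 and 2.30% in P. vulgaris, so that every P. lunatus library was lower (log2 ratio -0.24 ± 0.05 SE, adjusted p = 0.00229). The most counted P. lunatus gene of the family, described as the CBL-interacting kinase 6 that relays calcium signals, held 10.6% of it. A related value, Pkinase_Tyr, collects kinases whose domain resembles tyrosine kinases, in plants mostly receptor-like and Raf-like serine/threonine kinases such as CTR1. It was higher in P. lunatus, at 0.804 ± 0.0324% against 0.694 ± 0.0277% (SD, n = 3 each; log2 ratio 0.21 ± 0.06, adjusted p = 0.00821). When the values were added together, the kinases were lower in P. lunatus by a log2 ratio of -0.13 (adjusted p = 0.048), so the direction of Pkinase_Tyr depends on how the column divides kinases.

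The ATPases of the AAA family, which include Rubisco activase, the enzyme that clears blocked Rubisco active sites, differed less between the species than P. vulgaris libraries did among themselves. The share was 1.49, 1.54 and 1.47% in P. lunatus, against 1.24, 1.12 and 1.63% in P. vulgaris, where replicate 3 stood above the P. lunatus range (log2 ratio 0.17 ± 0.12, adjusted p = 0.238). Without P. vulgaris replicate 3 the ratio was 0.35 (adjusted p = 0.00253), without P. vulgaris replicate 2 it was 0.06 (0.655), and without the most counted gene of each species 0.10 (0.0372). The most counted P. vulgaris gene of this family, PHAVU_001G234300g, had 2769, 1380 and 6886 CPM in replicates 1, 2 and 3. In P. lunatus, 2 genes described as Rubisco activase held 30.8 and 22.2% of the family.

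RNA-binding proteins with an RRM_1 motif took 1.29 ± 0.0493% of counts in P. lunatus and 1.48 ± 0.0479% in P. vulgaris (log2 ratio -0.19 ± 0.05, adjusted p = 0.0113). That call was lost without P. vulgaris replicate 2 (adjusted p = 0.0599), with TMM factors (log2 ratio -0.10, adjusted p = 0.0714), with DESeq2's size factors (-0.10, 0.0566) and per annotated gene (-0.13, 0.0625). The elongation factors of GTP_EFTU, which carry tRNAs to the ribosome, took 0.695 ± 0.0312% in P. lunatus and 0.769 ± 0.013% in P. vulgaris (log2 ratio -0.15 ± 0.05, adjusted p = 0.0345). Here the call was lost without P. lunatus replicate 1 (adjusted p = 0.0906) or 3 (0.0928) and without P. vulgaris replicate 1 (0.0714) or 2 (0.127). It was lost as well with TMM factors (log2 ratio -0.05, adjusted p = 0.337), with DESeq2's size factors (-0.05, 0.309) and without the most counted genes (-0.07, 0.116). In length-scaled shares (TPM, counts per base of gene, scaled to a fixed total) neither family was lower, with log2 ratios of 0.0049 for RRM_1 and 0.06 for GTP_EFTU.

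The lipoxygenases formed the family of highest mean share in P. lunatus. These enzymes add oxygen to linoleic and linolenic acid. The Lipoxygenase family took 2.58, 2.19 and 2.04% of all counts in P. lunatus, against 0.670, 0.725 and 0.581% in P. vulgaris. The lowest P. lunatus library was thus well above the highest P. vulgaris library, by 3.44-fold on average (log2 ratio 1.78 ± 0.11, adjusted p = 2.48e-06), although P. lunatus has 28 annotated members and P. vulgaris 33. About as many were expressed in each species, 17.7 against 17.3 on average.

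In P. lunatus, 16 lipoxygenase genes described as 9S enzymes, which oxidise carbon 9 of the fatty acid, held 81.9 ± 2.52% of the family's counts. The 8 described as 13S enzymes, the type that leads to jasmonate, held 18.0 ± 2.52% (SD, n = 3). The most counted, Pl05G0000270900.v1, described as linoleate 9S-lipoxygenase-4, lies on chromosome 5 from 35993967 to 35997483 on the + strand, in the coordinates of the deposited table, whose genome build is not given in the sources used here. It had 11010, 8812 and 8370 CPM and held 41.5% of the family, and a neighbour of the same description, Pl05G0000270800.v1, lies at 35978414 to 35982830 and held 14.6%. The P. vulgaris family was led by PHAVU_005G156900g, on chromosome 5 from 38277895 to 38281683, with 63.6%. Without the most counted gene of each species the family's log2 ratio was 2.47, so the difference was not carried by a single gene.

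Lipase_3, the class of lipases that includes the phospholipases acting on chloroplast lipids, had the largest positive log2 ratio of the 327 families tested. Its share was 0.409, 0.374 and 0.395% in P. lunatus, against 0.0988, 0.0900 and 0.0801% in P. vulgaris, a 4.38-fold difference with no overlap (log2 ratio 2.13 ± 0.08, adjusted p = 2.73e-07). Unlike the lipoxygenases, this family held its difference in 1 gene. Pl01G0000301200.v1, described as the chloroplast phospholipase A1-Igamma2 and annotated on chromosome 1 from 36987707 to 36991284 on the + strand, had 3341, 2931 and 3252 CPM and held 80.9% of the P. lunatus family. The most counted P. vulgaris member held 14.8% of its family. With the most counted gene of each species left out, the log2 ratio was -0.02 (adjusted p = 0.831).

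Other families tied to jasmonate did not move in 1 direction. The Zim family, which holds the JAZ repressors of jasmonate signalling among the TIFY proteins, took 0.0664, 0.0694 and 0.0757% in P. lunatus, against 0.0333, 0.0329 and 0.0298% in P. vulgaris (2.20-fold higher, log2 ratio 1.14 ± 0.07, adjusted p = 2.64e-06). Both species have 13 members. Oxidored_FMN, the family of the jasmonate enzyme 12-oxophytodienoate reductase, took 0.0124, 0.0115 and 0.0113% in P. lunatus, against 0.0318, 0.0296 and 0.0285% in P. vulgaris (2.56-fold lower, log2 ratio -1.35 ± 0.07, adjusted p = 1.24e-06). A gene described as that reductase, number 3 of its kind, held 63.2% of the P. lunatus family.

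**Figure D2:**
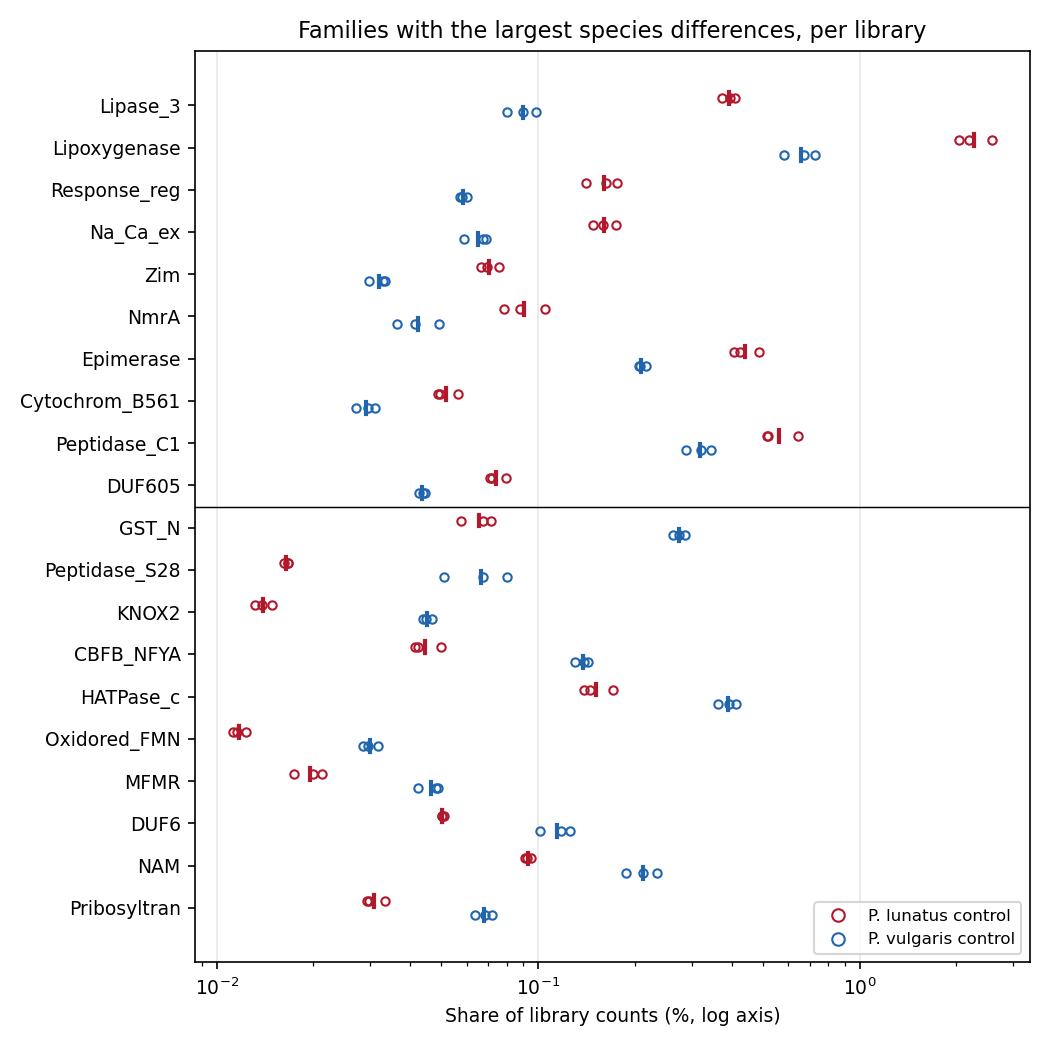
Share of counts in percent (log axis) of the 10 families with the largest positive ratios (upper rows) and the 10 with the largest negative ratios (lower rows) among families with a mean share of at least 0.02% and no overlap. Each point is 1 library, P. lunatus above P. vulgaris in each row, and bars mark the means. Within every row the 3 libraries of a species lie closer together than the species do.

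Response_reg, the receiver domain of two-component signalling and of the pseudo-response regulators of the clock, took 0.141, 0.163 and 0.175% of counts in P. lunatus, against 0.0579, 0.0570 and 0.0600% in P. vulgaris (2.74-fold, log2 ratio 1.45 ± 0.08, adjusted p = 1.99e-06). In P. lunatus, 10 genes described as clock-type response regulators held 75.7 ± 1.28% of it, led by PRR37 with 28.6%, APRR5 with 19.2% and APRR7 with 15.1%. The family stayed higher without the most counted gene of each species (log2 ratio 1.20). When it was merged with CCT and zf-B_box, domains that can lie on the same proteins, the log2 ratio was 0.49 (adjusted p = 0.000432). CCT alone was lower in P. lunatus, with a log2 ratio of -0.24 (adjusted p = 0.0477).

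Myb_DNA-binding, the family of MYB regulators, took 0.527, 0.509 and 0.499% in P. lunatus, against 0.353, 0.344 and 0.361% in P. vulgaris (log2 ratio 0.54 ± 0.05, adjusted p = 1.42e-05). The morning clock regulators LATE ELONGATED HYPOCOTYL, CCA1 and REVEILLE belong to it. In P. lunatus, 11 genes with those descriptions held 36.3 ± 1.61% of the family, and 1 of them, Pl10G0000312300.v1 (chromosome 10, 49885196 to 49900784), held 25.3% at 1349, 1294 and 1240 CPM. The family was higher also without the most counted genes, by a smaller log2 ratio of 0.21 (adjusted p = 0.00092). Clock transcripts change over the day, the labels give no time of sampling, and its part in these differences was not tested.

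Transcription factor families as a list were called about as often as families in general. Of 25 shared families on the list, 6 were higher in P. lunatus (24%), 12 lower (48%) and 7 not called, against 25.4% higher and 40.4% lower over all families tested. The median log2 ratio was -0.16, against -0.09 over all families. With TMM factors 7 were higher and 8 lower. Together they took 2.22 ± 0.0669% of counts in P. lunatus and 2.50 ± 0.0478% in P. vulgaris (SD, n = 3 each). The 3 that differed by at least 2-fold were all lower in P. lunatus: NAM, CBFB_NFYA and bZIP_2.

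The NAM family, the NAC regulators of senescence, stress and cell-wall formation, took 0.0951, 0.0925 and 0.0912% in P. lunatus, against 0.234, 0.211 and 0.188% in P. vulgaris (2.27-fold lower, log2 ratio -1.18 ± 0.08, adjusted p = 2.99e-06). More of its genes were expressed in P. lunatus all the same, with 62, 58 and 59 of 92 there and 50, 53 and 54 of 90 in P. vulgaris. Its counts were spread over many genes in P. lunatus, the first holding 8.76%, while PHAVU_005G084500g held 35.7% in P. vulgaris with 843.6, 768.4 and 650.5 CPM. Without those genes the log2 ratio was -0.68.

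CBFB_NFYA, the A subunits of the CCAAT-binding factor NF-Y, took 0.05, 0.0424 and 0.0413% in P. lunatus, against 0.143, 0.139 and 0.131% in P. vulgaris, with 9 genes in each (3.09-fold lower, log2 ratio -1.63 ± 0.08, adjusted p = 1.24e-06). Basic leucine zipper genes are divided over 3 values, all lower in P. lunatus. bZIP_1 took 0.110 ± 0.0164% against 0.217 ± 0.00854% (log2 ratio -0.98 ± 0.10), bZIP_2 0.0102 ± 0.000461% against 0.0227 ± 0.00075%, and MFMR, the region found in G-box binding factors, 0.0195 ± 0.00196% against 0.0464 ± 0.00351% (SD, n = 3 each). Merged, they had a log2 ratio of -1.04. In TPM shares MFMR had a log2 ratio of -0.12 and lost its call (adjusted p = 0.272).

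The homeobox genes show how much the single-valued column matters. KNOX2, a region of the KNOTTED-like proteins that pattern leaves and meristems, took 0.0131, 0.0138 and 0.0149% in P. lunatus, against 0.0467, 0.0438 and 0.0447% in P. vulgaris (3.23-fold lower, log2 ratio -1.69 ± 0.06, adjusted p = 2.47e-07). Homeobox itself had a log2 ratio of -0.62 ± 0.08. The value KNOX1, which lies on the same proteins, named 5 P. lunatus genes with a mean of 0.0128% of counts and 2 P. vulgaris genes with none. Merging Homeobox, KNOX2, POX and HALZ left a log2 ratio of -0.20 (adjusted p = 0.00731). KNOX1 is not in that merge, because it named too few P. vulgaris genes to be a shared family. The KNOX2 ratio is therefore not that of the KNOTTED-like proteins as a whole.

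The stress-linked WRKY family held 0.0719, 0.0844 and 0.0681% in P. lunatus, against 0.0870, 0.0751 and 0.0656% in P. vulgaris, and the groups overlapped (log2 ratio -0.02 ± 0.11, adjusted p = 0.866). HLH, the basic helix-loop-helix family of MYC2, was as even at 0.193 ± 0.0116% against 0.190 ± 0.00273% (log2 ratio 0.02 ± 0.06, adjusted p = 0.701). Auxin_resp, the auxin response factors, had a log2 ratio of 0.08 (adjusted p = 0.168) and was called only after rescaling, at 0.17 with TMM (adjusted p = 0.012) and with DESeq2's size factors (adjusted p = 0.00129). AP2, the family of ethylene response factors, was lower in P. lunatus at 0.178 ± 0.0184% against 0.215 ± 0.00911% (log2 ratio -0.27 ± 0.08, adjusted p = 0.0132). That call was lost without P. vulgaris replicate 1 (adjusted p = 0.0509), with TMM factors (log2 ratio -0.18, adjusted p = 0.0686) and in TPM shares (-0.15, 0.0943).

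Of the remaining transcription factor families, heat stress factors (HSF_DNA-bind) were lower in P. lunatus with a log2 ratio of -0.54, and the GATA factors, linked to greening and nitrogen, were higher with 0.55. K-box, a region of MADS-box proteins such as the flowering regulator SOC1, was higher by 0.87 ± 0.16 (adjusted p = 0.00139). Joined with its partner value SRF-TF it had a log2 ratio of 0.18 and no call (adjusted p = 0.103). These families were chosen for mention after their values were seen.

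Enzymes of redox and small-molecule chemistry formed the list with no uncalled member: 4 of 9 families were higher in P. lunatus (44.4%) and 5 lower (55.6%), against 25.4% higher and 40.4% lower over all families tested. The median log2 ratio was -0.24, against -0.09 over all families. With TMM factors 4 were higher and 3 lower. Their summed shares were near each other, 1.84 ± 0.0237% in P. lunatus and 1.87 ± 0.0355% in P. vulgaris. The list therefore differed in its make-up far more than in its total.

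GST_N, the N-terminal domain of glutathione S-transferases, which join glutathione to toxic compounds, had the second largest negative log2 ratio of all families tested. It took 0.0674, 0.0715 and 0.0575% of counts in P. lunatus, against 0.287, 0.262 and 0.275% in P. vulgaris (4.20-fold lower, log2 ratio -2.07 ± 0.09, adjusted p = 3.36e-07). The number of expressed members differed less, 21.3 of 31 against 24.7 of 35. The domain is also part of the elongation factor 1-gamma, and in P. lunatus 2 genes of that description held 42.6 ± 0.403% of the family while 29 described as transferases held 57.4 ± 0.403%. Without the most counted gene of each species the log2 ratio was -1.96. The first P. vulgaris gene, PHAVU_008G195600g, had 812.4, 700.6 and 961.7 CPM, or 30.0% of that family.

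Epimerase, a family of NAD-dependent reductases and epimerases, was 2.10-fold higher in P. lunatus, with 0.425, 0.408 and 0.486% against 0.205, 0.207 and 0.216% in P. vulgaris (log2 ratio 1.07 ± 0.07, adjusted p = 2.99e-06). Its first P. lunatus genes were described as phenylacetaldehyde reductase, with 34.7% of the family, and as a chloroplast stem-loop binding protein, with 27.5%. The related NmrA family took 0.105, 0.0876 and 0.0781% in P. lunatus, against 0.0414, 0.0364 and 0.0493% in P. vulgaris (log2 ratio 1.09 ± 0.13, adjusted p = 8.86e-05). A gene described as a phenylcoumaran benzylic ether reductase, an enzyme of lignan metabolism, held 77.1% of it, and without the most counted genes the log2 ratio was -0.22 and not called (adjusted p = 0.0878).

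Alcohol dehydrogenase-like genes moved apart by domain value. ADH_N was higher in P. lunatus at 0.198 ± 0.00512% against 0.119 ± 0.00398% (log2 ratio 0.74 ± 0.05, adjusted p = 3.55e-06), and ADH_zinc_N was lower at 0.0638 ± 0.00295% against 0.1 ± 0.00273% (log2 ratio -0.65 ± 0.06). AMP-binding, the family of coumarate-CoA ligases, was lower by a log2 ratio of -0.56, and the aldo-keto reductases of Aldo_ket_red were higher by 0.57, or by 0.08 without the most counted genes (adjusted p = 0.194). Short-chain dehydrogenases (adh_short) had a log2 ratio of 0.40, but the chlorophyll enzyme protochlorophyllide reductase held 51.7% of the P. lunatus family, and without the most counted genes the ratio was -0.46.

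The totals of the remaining redox families differed little. The 2-oxoglutarate-dependent oxygenases (2OG-FeII_Oxy) took 0.216, 0.288 and 0.251% in P. lunatus, against 0.311, 0.300 and 0.292% in P. vulgaris (log2 ratio -0.26 ± 0.09, adjusted p = 0.0395). An ACC oxidase, which makes ethylene, held 58.0% of the P. lunatus family, and the first P. vulgaris gene held 25.0% of its own. The call was lost on leaving out P. lunatus replicate 1 (log2 ratio -0.16, adjusted p = 0.0831) or 3 (0.0722) or P. vulgaris replicate 1 (0.117), 2 (0.0768) or 3 (0.0713). It was lost too with TMM factors (log2 ratio -0.16, adjusted p = 0.156), DESeq2's size factors (-0.17, 0.112), a total of shared-family counts only (-0.24, 0.0587), per annotated gene (-0.11, 0.337) and with the replicate number as a block (-0.26, 0.0561). The aldehyde dehydrogenases (Aldedh) had a log2 ratio of -0.24 ± 0.07 (adjusted p = 0.0135). This call was lost without P. vulgaris replicate 1 (adjusted p = 0.0523), with TMM factors (log2 ratio -0.15, adjusted p = 0.0759) and with DESeq2's size factors (-0.15, 0.0635). The first Aldedh gene held 53.5% of the family in P. lunatus and 38.9% in P. vulgaris. In both families the first gene held a larger part in P. lunatus, so the totals do not describe the other members.

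Most families on the list of protein synthesis, turnover and chromatin were lower in P. lunatus. The list includes Histone, and of ribosomal proteins and elongation factors it holds only Ribosomal_L2_C, Ribosomal_S10 and GTP_EFTU. The GTP_EFTU call was lost in several settings, as given above, so the count does not describe translation as a class. Of 18 shared families on the list, 2 were higher (11.1%), 14 lower (77.8%) and 2 not called, against 25.4% higher and 40.4% lower over all families tested. The median log2 ratio was -0.23, against -0.09 over all families, and none reached 2-fold. With TMM factors, which split all families evenly, 2 of the list were higher and 10 lower. Their summed share was 6.70, 6.82 and 6.67% in P. lunatus, against 7.21, 7.08 and 7.34% in P. vulgaris. The lower ones ran from elongation factors and RNA-binding proteins to the proteasome, E2 enzymes (UQ_con), F-box and U-box ubiquitin ligases and the chaperone families HSP70 and DnaJ.

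The ubiquitin family itself, the tag for degradation, took 0.435, 0.427 and 0.452% in P. lunatus, against 0.690, 0.658 and 0.610% in P. vulgaris (log2 ratio -0.58 ± 0.06, adjusted p = 3.42e-05). A polyubiquitin gene held 36.9% of the P. lunatus family, and the first P. vulgaris gene 45.3%. F-box, whose members choose the proteins to be tagged, took 0.0840 ± 0.00286% against 0.131 ± 0.00115% (log2 ratio -0.64 ± 0.05, adjusted p = 7.72e-06), and nearly the same number of its genes was expressed, 33.7 against 34.0. HSP70 chaperones took 0.360 ± 0.0103% against 0.468 ± 0.0337% (log2 ratio -0.38), a call lost without the most counted genes (log2 ratio -0.11, adjusted p = 0.0707).

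Outside that list, HATPase_c and DnaJ_C were at least 2-fold lower in P. lunatus. HATPase_c, an ATP-binding domain of HSP90 and histidine kinases, took 0.144, 0.139 and 0.170% in P. lunatus, against 0.413, 0.393 and 0.362% in P. vulgaris (2.58-fold lower, log2 ratio -1.37 ± 0.09, adjusted p = 2.74e-06). A gene named as the chloroplast form HSP90-5 led it in both tables, with 44.7% of the P. lunatus and 46.3% of the P. vulgaris family, and 16 P. lunatus genes described as HSP90 proteins held 60.2 ± 4.13%. DnaJ_C, part of the HSP40 co-chaperones, took 0.236, 0.236 and 0.221% in P. lunatus, against 0.501, 0.521 and 0.435% in P. vulgaris (2.11-fold lower, log2 ratio -1.07 ± 0.07, adjusted p = 2.99e-06). Here the first gene carried the difference: the DnaJ homolog ANJ1 held 53.4% of the P. lunatus family with 1311, 1287 and 1086 CPM, and PHAVU_011G100000g 79.8% of the P. vulgaris family with 4030, 4197 and 3406 CPM. Without them the log2 ratio was 0.14 (adjusted p = 0.0341).

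Proteases split by class. The papain-type cysteine proteases (Peptidase_C1), which work in vacuoles and in senescing leaves, took 0.515, 0.520 and 0.645% in P. lunatus, against 0.346, 0.289 and 0.322% in P. vulgaris (1.75-fold higher, log2 ratio 0.81 ± 0.10, adjusted p = 0.0001). A gene described as pro-cathepsin H held 68.9% of the P. lunatus family, and without the most counted genes the log2 ratio was -0.06 (adjusted p = 0.404). The subtilases (Peptidase_S8) were higher by a log2 ratio of 0.47 ± 0.07. The lysosomal-type serine proteases of Peptidase_S28 took 0.0166, 0.0166 and 0.0162% in P. lunatus, against 0.0803, 0.0511 and 0.0676% in P. vulgaris (4.02-fold lower, log2 ratio -2.01 ± 0.14, adjusted p = 3.55e-06), with 7 genes against 11. Per annotated gene that ratio was -1.36.

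RNA-handling families went both ways: on a list made after the data were seen, 6 of 15 were higher in P. lunatus (40%), 6 lower (40%) and 3 not called, against 25.4% higher and 40.4% lower over all families tested. Genes with the value PPR, for pentatricopeptide repeat proteins that edit and process organelle RNA, took 0.0967 ± 0.00667% in P. lunatus and 0.0591 ± 0.001% in P. vulgaris (log2 ratio 0.71 ± 0.06, adjusted p = 1.35e-05). Of the genes so named, 88, 93 and 95 of 119 were expressed in P. lunatus and 79, 78 and 79 of 103 in P. vulgaris. The value does not cover all genes described as such proteins. The most counted P. lunatus gene of all, Pl02G0000321600.v1, has that description but no family value. It took 1.82, 1.92 and 1.84% of counts, so the PPR share is not that of all genes so described. The description of this gene was not checked against its sequence. YTH, the readers of the methyl mark m6A on mRNA, had a log2 ratio of -0.67 ± 0.08, and zf-CCCH, zinc fingers that bind RNA, one of -0.70 ± 0.07.

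Histones took 0.144, 0.157 and 0.141% in P. lunatus, against 0.159, 0.163 and 0.161% in P. vulgaris, and were not called (log2 ratio -0.13 ± 0.06, adjusted p = 0.0776). They were called lower without P. lunatus replicate 2 (-0.17, adjusted p = 0.0327) and without the most counted genes (-0.45, 5.14e-05), but higher in TPM shares (0.33, 0.00133) and per annotated gene (0.21, 0.00995). How reads of near-identical histone copies were counted is not given in the sources used here. On a list of chromatin and DNA families made after the data were seen, 4 of 23 were higher (17.4%), 8 lower (34.8%) and 11 not called. Over all families tested, 25.4% were higher and 40.4% lower, and 12.5% were called and at least 2-fold apart. On the list only MCM, the replication helicases, passed 2-fold, at 0.0154 ± 0.00119% in P. lunatus against 0.00544 ± 0.000687% (log2 ratio 1.5 ± 0.11). A gene described as MCM9 held 52.8% of the P. lunatus family, and without the most counted genes the log2 ratio was 0.79.

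Of 10 signalling families, 2 were higher in P. lunatus (20%), 4 lower (40%) and 4 not called (median log2 ratio -0.12), close to the 25.4% higher and 40.4% lower over all families tested. The type 2C protein phosphatases (PP2C), which hold back abscisic acid signalling among other pathways, took 0.378, 0.340 and 0.347% in P. lunatus, against 0.543, 0.544 and 0.492% in P. vulgaris (1.48-fold lower, log2 ratio -0.57 ± 0.06, adjusted p = 5.83e-05). The small GTPases of Ras and Arf, which steer membrane traffic, were lower by log2 ratios of -0.45 and -0.48. For Arf the ratio was 0.00 without the most counted gene of each species (adjusted p = 0.991), since that gene held 37.5% in P. lunatus and 54.6% in P. vulgaris.

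Of 11 transport families, 3 were higher (27.3%), 4 lower (36.4%) and 4 not called (median log2 ratio -0.10), again close to the shares over all families. Ammonium_transp, the ammonium importers, took 0.0272, 0.0224 and 0.0267% in P. lunatus, against 0.0113, 0.0120 and 0.0127% in P. vulgaris (2.12-fold higher, log2 ratio 1.08 ± 0.09, adjusted p = 8.44e-06). The first gene of Ammonium_transp held 56.2% of the family in P. lunatus and 35.4% in P. vulgaris. Potassium transporters (K_trans) were higher by 0.65 ± 0.07. The MATE exporters (MatE) were higher by 0.46, but DETOXIFICATION 40 held 59.0% of the P. lunatus family and the log2 ratio was -0.43 without the most counted genes. Amino acid carriers (Aa_trans) took 0.106 ± 0.0021% against 0.184 ± 0.00776% (log2 ratio -0.79 ± 0.05, adjusted p = 2.99e-06), spread over many genes, and the sugar and phosphate carriers of MFS_1 were lower by -0.60.

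Na_Ca_ex, the vacuolar calcium and proton exchangers, was outside the transport list. It took 0.148, 0.159 and 0.175% in P. lunatus, against 0.0688, 0.0676 and 0.0587% in P. vulgaris, from 15 genes in each (2.47-fold higher, log2 ratio 1.30 ± 0.09, adjusted p = 2.92e-06). A gene described as vacuolar cation/proton exchanger 3 held 78.3% of it in P. lunatus, and the log2 ratio without the most counted genes was 0.42.

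The transport families of highest share differed less. E1-E2_ATPase, the pumps that energise membranes, had a log2 ratio of -0.22 ± 0.05 (adjusted p = 0.00391), which was 0.12 without the most counted genes. ABC_tran had 0.06 (adjusted p = 0.284) and was called higher with TMM (0.16, adjusted p = 0.0195) but lower when merged with the ABC membrane domains (-0.21, adjusted p = 0.00524). The mitochondrial carriers (Mito_carr) stood at -0.13 (adjusted p = 0.0523), on the edge of the threshold: 6 alternatives called it lower (adjusted p between 0.037 and 0.0496), among them leaving out P. vulgaris replicate 3. In TPM shares it was called higher (0.20, adjusted p = 0.00972).

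The cyanogenesis list holds 10 domain names, of which 7 are shared families. Of these 5 were higher in P. lunatus (71.4%), 1 lower (14.3%) and 1 not called, against 25.4% higher and 40.4% lower over all families tested. The median log2 ratio was 0.26, against -0.09 over all families, and with TMM factors 5 were higher and 1 lower as well. Their summed share was 1.37, 1.45 and 1.45% in P. lunatus, against 1.29, 1.28 and 1.27% in P. vulgaris. These domains are broad, and most of their members have no part in cyanogenesis. The higher calls of p450, UDPGT, Glyco_hydro_1 and CN_hydrolase and the lower call of Rhodanese were each lost in some other setting, as given below. In TPM shares p450 (log2 ratio -0.20, limma, adjusted p = 0.0127) and Abhydrolase_1 (-0.65, 6.99e-06) were called lower. The count therefore does not describe cyanogenesis as a class.

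Cytochrome P450 enzymes (p450), which include those that make the aldoximes and cyanohydrins, took 0.535, 0.532 and 0.550% in P. lunatus, against 0.502, 0.495 and 0.472% in P. vulgaris (log2 ratio 0.14 ± 0.05, adjusted p = 0.0335). The call was lost without P. lunatus replicate 1 (adjusted p = 0.0524), 2 (0.0651) or 3 (0.0817) and without P. vulgaris replicate 2 (0.0843) or 3 (0.0642), and in TPM shares the log2 ratio was -0.20 (limma, adjusted p = 0.0127). Genes described as pathway enzymes made up little of the P. lunatus family: 10 described as isoleucine or valine N-monooxygenases held 0.0386 ± 0.0288% of it, and 10 described as oxime monooxygenases 2.42 ± 0.843% (SD, n = 3). The first 2 genes were described as CYP82C4, with 10.2%, and as allene oxide synthase 1 of the jasmonate pathway, with 8.60%.

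UDP-glucosyltransferases (UDPGT) took 0.331, 0.339 and 0.405% in P. lunatus, against 0.299, 0.303 and 0.294% in P. vulgaris (log2 ratio 0.26 ± 0.08, adjusted p = 0.0149). The call was lost without P. vulgaris replicate 3 (adjusted p = 0.0517) and in TPM shares (log2 ratio 0.20, adjusted p = 0.0883), and without P. lunatus replicate 3 the log2 ratio was 0.17. Here a description from the pathway covered a large part. The 4 P. lunatus genes described as linamarin synthase, which glucosylates acetone cyanohydrin, held 28.8 ± 2.45% of the family, or 0.0867, 0.0993 and 0.126% of all counts. These genes are grouped by the wording of their descriptions only, and their activity was not tested. The first of them, Pl06G0000090100.v1, lies on chromosome 6 from 13583055 to 13585551 on the + strand and had 550.7, 543.9 and 737.8 CPM. P. lunatus had fewer members, 143 against 175, and per annotated gene the log2 ratio was 0.55.

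Family 1 glycosidases (Glyco_hydro_1), the beta-glucosidases, varied most of this list among the P. lunatus libraries. They took 0.115, 0.195 and 0.0931% in P. lunatus, against 0.0863, 0.0827 and 0.0813% in P. vulgaris (log2 ratio 0.69 ± 0.23, adjusted p = 0.024). Without P. lunatus replicate 2 the log2 ratio was 0.32 (adjusted p = 0.0138), and the call was lost without P. vulgaris replicate 1 (adjusted p = 0.0582), 2 (0.0519) or 3 (0.0836) and without the most counted genes (log2 ratio 0.55, adjusted p = 0.0997). The gene Pl05G0000265500.v1, described as an isoflavonoid beta-glycosidase, had 697.8 CPM in replicate 2, against 43.0 and 69.95 CPM in replicates 1 and 3. The most counted gene, Pl05G0000044700.v1, described as a vicianin hydrolase, was also highest in replicate 2, at 620.2 CPM against 387.1 and 438.4 CPM. Genes described as vicianin hydrolase, 3 in number, held 37.5 ± 8.39% of the P. lunatus family, and 2 described as cyanogenic beta-glucosidase held 0.121 ± 0.032%. These groups follow the wording of the descriptions only and do not divide cyanogenic enzymes from others.

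The families of cyanide use showed tighter values. PALP, which joins cysteine synthases and cyanoalanine synthase, took 0.160, 0.151 and 0.158% in P. lunatus, against 0.0993, 0.0979 and 0.106% in P. vulgaris, with all 18 genes expressed in each (log2 ratio 0.63 ± 0.06, adjusted p = 1.13e-05). The gene described as cyanoalanine synthase held 19.9 ± 2.80% of the P. lunatus family and 8 described as cysteine synthases 45.5 ± 3.66%. CN_hydrolase, the nitrilases, took 0.0469, 0.0457 and 0.0505% in P. lunatus, against 0.0314, 0.0299 and 0.0296% in P. vulgaris (log2 ratio 0.66 ± 0.06, adjusted p = 1.02e-05). A gene described as the cyanoalanine nitrilase NIT4A held 52.8 ± 0.103% of the P. lunatus family, and without the most counted genes the log2 ratio was 0.10 (adjusted p = 0.16).

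Rhodanese, the sulfurtransferase domain named for its transfer of sulfur to cyanide, was the exception. It took 0.101, 0.106 and 0.111% in P. lunatus, against 0.189, 0.181 and 0.202% in P. vulgaris (1.80-fold lower, log2 ratio -0.85 ± 0.06, adjusted p = 4.02e-06). The P. vulgaris gene PHAVU_002G112600g, with 1125, 1034 and 1063 CPM, held 56.4% of that family, and without the most counted genes the log2 ratio was -0.12 (adjusted p = 0.305). Abhydrolase_1, the fold of hydroxynitrile lyases and many other hydrolases, had 0.0846 ± 0.00298% in P. lunatus and 0.0868 ± 0.00155% in P. vulgaris (log2 ratio -0.04 ± 0.05, adjusted p = 0.538). Its value depended on the scale, with -0.65 in TPM shares and 0.31 per annotated gene.

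**Figure D3:**
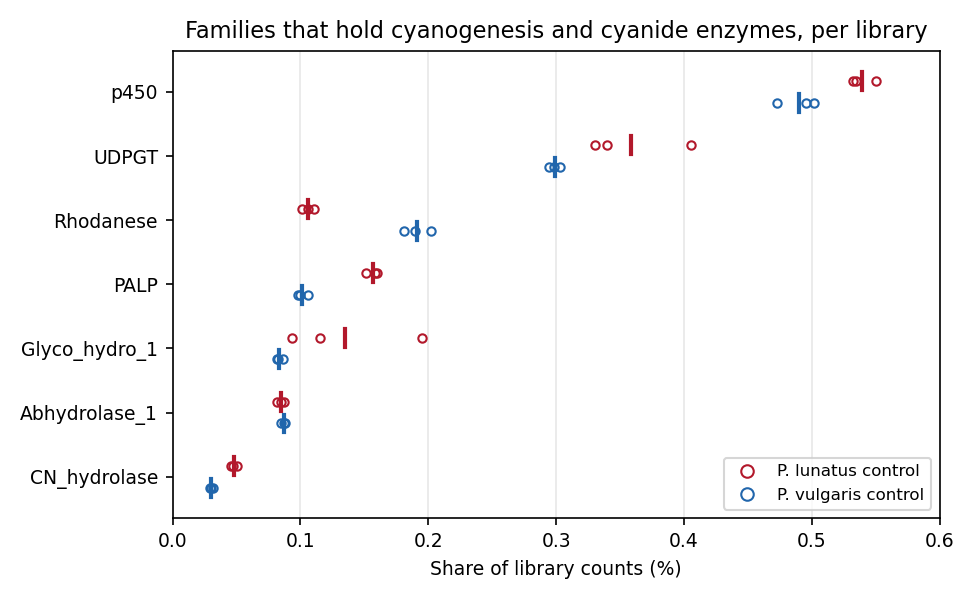
Share of counts in percent of the 7 shared families on the cyanogenesis list, 1 point per library with P. lunatus above P. vulgaris in each row and bars at the means. Glyco_hydro_1 has 1 P. lunatus library at 0.195%, above the other two, and Rhodanese is the family in which all P. lunatus libraries lie below all P. vulgaris libraries.

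Defence proteins other than lipoxygenases did not follow them. Of 8 families 1 was higher, Lipoxygenase (12.5%), 3 were lower (37.5%) and 4 not called, against 25.4% higher and 40.4% lower over all families tested. With it the list took 2.58 ± 0.258% of counts in P. lunatus and 0.991 ± 0.0962% in P. vulgaris. Without it the shares were 0.311 ± 0.0297% and 0.332 ± 0.0310% (SD, n = 3 each).

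The resistance proteins of NB-ARC, which sense pathogen and pest molecules, took 0.128, 0.147 and 0.148% in P. lunatus, against 0.154, 0.145 and 0.138% in P. vulgaris, and the groups overlapped (log2 ratio -0.05 ± 0.07, adjusted p = 0.578). They differed in number: 85, 87 and 84 of 225 genes were expressed in P. lunatus and 124, 119 and 118 of 282 in P. vulgaris. Per annotated gene the log2 ratio was 0.28 (adjusted p = 0.00777), while in TPM shares it was -0.23 (limma, adjusted p = 0.0248) and without the most counted genes -0.22 (0.00675). TIR, the signalling domain of a class of these proteins, had a log2 ratio of -0.14 (adjusted p = 0.108), or -0.30 in TPM shares (0.0112). Glyco_hydro_17, the beta-1,3-glucanases, had 0.14 (adjusted p = 0.393), or 0.35 without P. vulgaris replicate 1 (adjusted p = 0.013).

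The 3 lower defence families were small. B_lectin, the mannose-binding lectin domain of receptor kinases and secreted lectins, took 0.00536 ± 0.0011% against 0.00953 ± 0.00166% (log2 ratio -0.83 ± 0.18, adjusted p = 0.0029). Chal_sti_synt_N, the chalcone synthases that open flavonoid synthesis, took 0.00828, 0.00601 and 0.00775% in P. lunatus, against 0.0117, 0.0284 and 0.00983% in P. vulgaris (log2 ratio -1.18 ± 0.36, adjusted p = 0.0177). That ratio was -0.55 without P. vulgaris replicate 2 (adjusted p = 0.0146) and 0.97 with no call without the most counted gene, which held 90.8% in P. lunatus and 97.7% in P. vulgaris. Hemopexin, a repeat of legume albumins, took 0.00221 ± 0.000325% against 0.00628 ± 0.000785% (log2 ratio -1.51 ± 0.16, adjusted p = 4.14e-05), and Albumin-2 held 99.5% of it in P. lunatus.

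The photosynthesis, cytoskeleton and cell-wall lists had few shared members. SHMT, serine hydroxymethyltransferase of photorespiration, took 0.406, 0.334 and 0.380% in P. lunatus, against 0.305, 0.313 and 0.306% in P. vulgaris (log2 ratio 0.28 ± 0.07, adjusted p = 0.00776). Its mitochondrial gene held 82.0% of the P. lunatus family, and without the most counted genes the log2 ratio was -0.50. Ferredoxins (Fer2), the electron carriers after photosystem I, had 0.168, 0.124 and 0.186% against 0.148, 0.159 and 0.152% and overlapped (log2 ratio 0.06 ± 0.13, adjusted p = 0.694). Without P. lunatus replicate 2 the ratio was 0.21 (adjusted p = 0.0274), and in TPM shares 0.93 (adjusted p = 0.000398). Cytochrom_B561, listed there by name although its members are ascorbate-linked membrane cytochromes, was 1.76-fold higher at 0.0516 ± 0.0041% against 0.0292 ± 0.00198% (log2 ratio 0.82 ± 0.07, adjusted p = 1.36e-05).

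The calls of cytoskeletal families depended on the scaling. Tubulin had a log2 ratio of 0.16 (adjusted p = 0.0716), which passed with TMM factors (0.26, adjusted p = 0.0151), DESeq2's size factors (0.25, 0.0025), per annotated gene (0.32, 0.00314), without the most counted genes (0.31, 0.00092) and without P. lunatus replicate 1 (0.23, adjusted p = 0.0109), and was 0.09 without P. lunatus replicate 3. Actin had -0.20 ± 0.06 (adjusted p = 0.015), lost without P. vulgaris replicate 2 (adjusted p = 0.0519) and with TMM factors (log2 ratio -0.11, adjusted p = 0.166) or DESeq2's (-0.11, 0.128), and 0.49 in TPM shares. The Kinesin motors had 0.11 (adjusted p = 0.123). They were called higher with TMM factors (0.21, 0.0242), DESeq2's size factors (0.20, 0.0061), in TPM shares (0.26, 0.00618) and without the most counted genes (0.27, 0.00136). In the cell-wall list none of 3 families was called: Glyco_transf_8 had -0.20 (adjusted p = 0.0564, but -0.29 and 0.00309 without P. vulgaris replicate 3), Lipase_GDSL 0.02 and Cu_bind_like -0.13. In TPM shares Glyco_transf_8 was called lower (-0.63, 0.000307). Without the most counted genes Lipase_GDSL (0.29, 0.00319) and Cu_bind_like (0.46, 0.00033) were called higher.

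**Figure D4:**
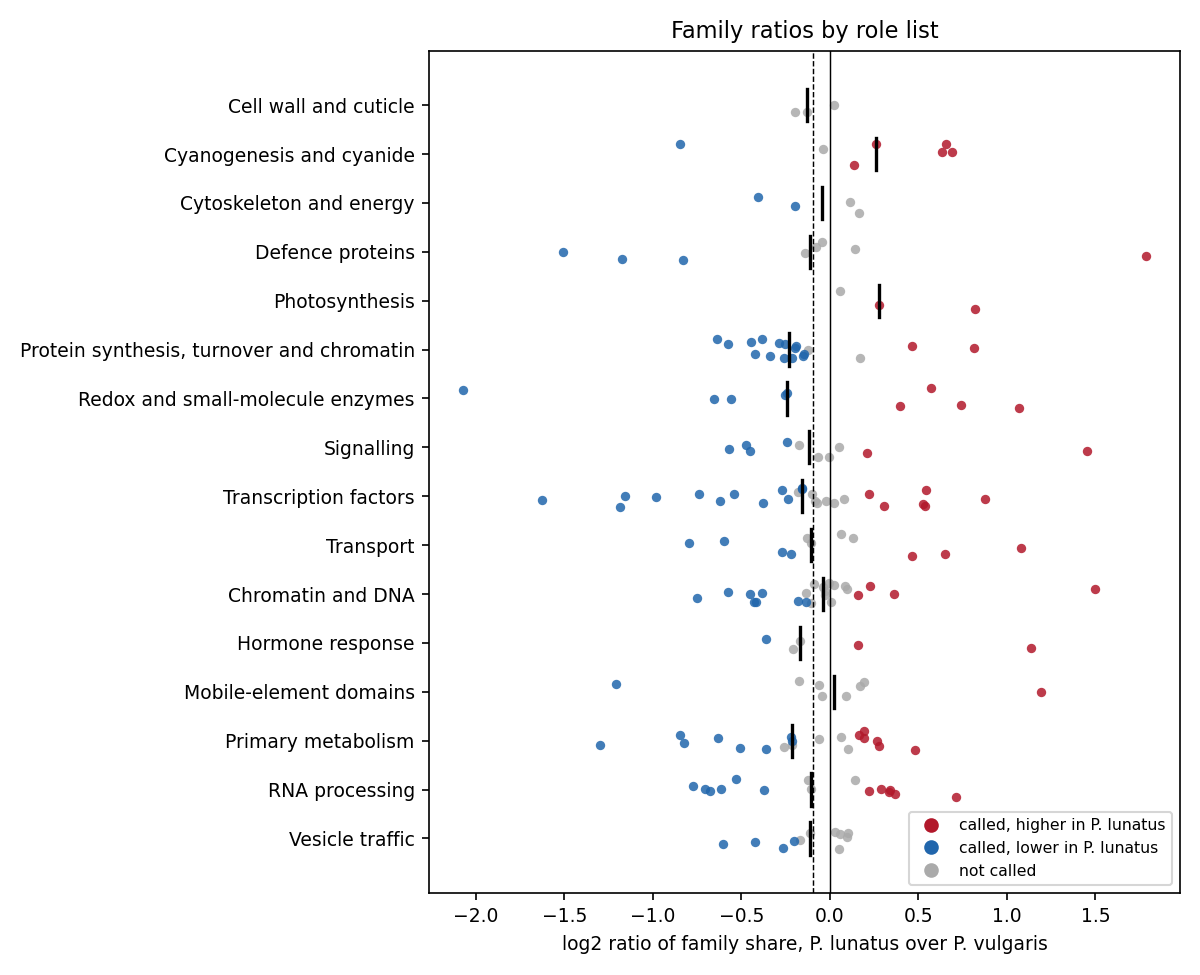
Log2 ratio of family share, P. lunatus over P. vulgaris, for each family of the role lists, 1 point per family. Colour marks the call, black ticks the median of each list and the dashed line the median of all families tested, -0.09. The lists spread to both sides of that line, and the list of protein synthesis, turnover and chromatin has 14 of its 18 points called below 0.

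Lists drawn up after the data were seen gave mixed counts, to be read against 25.4% higher and 40.4% lower over all families tested. In primary metabolism 6 of 19 families were higher (31.6%), 8 lower (42.1%) and 5 not called. The amino acid enzymes ACT, a regulatory domain, and Aminotran_3 were lower by log2 ratios of -0.85 and -0.63. In vesicle traffic none of 11 was higher, 4 were lower (36.4%) and 7 not called, but with TMM factors 4 were higher and 3 lower, and the sorting nexin domain PX was lower by -0.61. Of 8 mobile-element domains 1 was higher (12.5%), 1 lower (12.5%) and 6 not called, or 4 higher and 1 lower with TMM factors. P. lunatus has 283 annotated genes in those families and P. vulgaris 153, with similar summed shares of 0.196 ± 0.0105% and 0.187 ± 0.00374%. The list holds RVT_2, hATC, MuDR, DUF659, FAR1, Peptidase_C48, SWIM and Exo_endo_phos. Several of these domains also occur in genes that are not mobile elements, so the summed shares do not measure mobile-element expression. For RVT_2, a reverse transcriptase with 113 genes against 5, the share was 2.31-fold lower in P. lunatus (log2 ratio -1.21 ± 0.10). The first P. vulgaris gene held 75.7% of it, and without the most counted genes the log2 ratio was -0.30 and not called (adjusted p = 0.18).

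The number of expressed genes per family gave another view. It did not overlap between the species in 146 of 328 families (44.5%), with 56 higher in P. lunatus (17.1%) and 90 lower (27.4%). It was equal on average in 75 families, and in 46 every annotated gene was expressed in all 6 libraries. Several such families also differ in gene number: NB-ARC, Histone with 25 of 27 in each P. lunatus library against 32, 32 and 30 of 34, and Pkinase with 491, 508 and 500 of 740 against 542, 535 and 520 of 781 all have fewer annotated P. lunatus genes. For the receptor domain LRRNT_2, 36, 34 and 31 of 98 genes were expressed in P. lunatus, against 42, 38 and 40 of 95. Myb_DNA-binding went the other way, with 124, 124 and 120 of 228 in P. lunatus, against 111, 111 and 113 of 241. Sulfotransfer_1, enzymes that sulfate small molecules, had 8, 7 and 7 of 18 expressed in P. lunatus and 2 of 22 in every P. vulgaris library, beside a share 3.50-fold higher.

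Many of these totals rest on few genes. In 85 families of P. lunatus and 65 of P. vulgaris, 1 gene held over 50% of the counts, and the median family gave its first gene 34.5% in P. lunatus and 32.2% in P. vulgaris. With the most counted gene of each family left out in each species, 220 families were called, 76 higher and 144 lower. Of the 41 families at least 2-fold apart, 34 kept their direction and call under that setting and 18 were still 2-fold apart. In TPM shares 29 of the 41 remained 2-fold apart, and per annotated gene 40. Equal gene numbers were found in 17 of them.

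**Figure D5:**
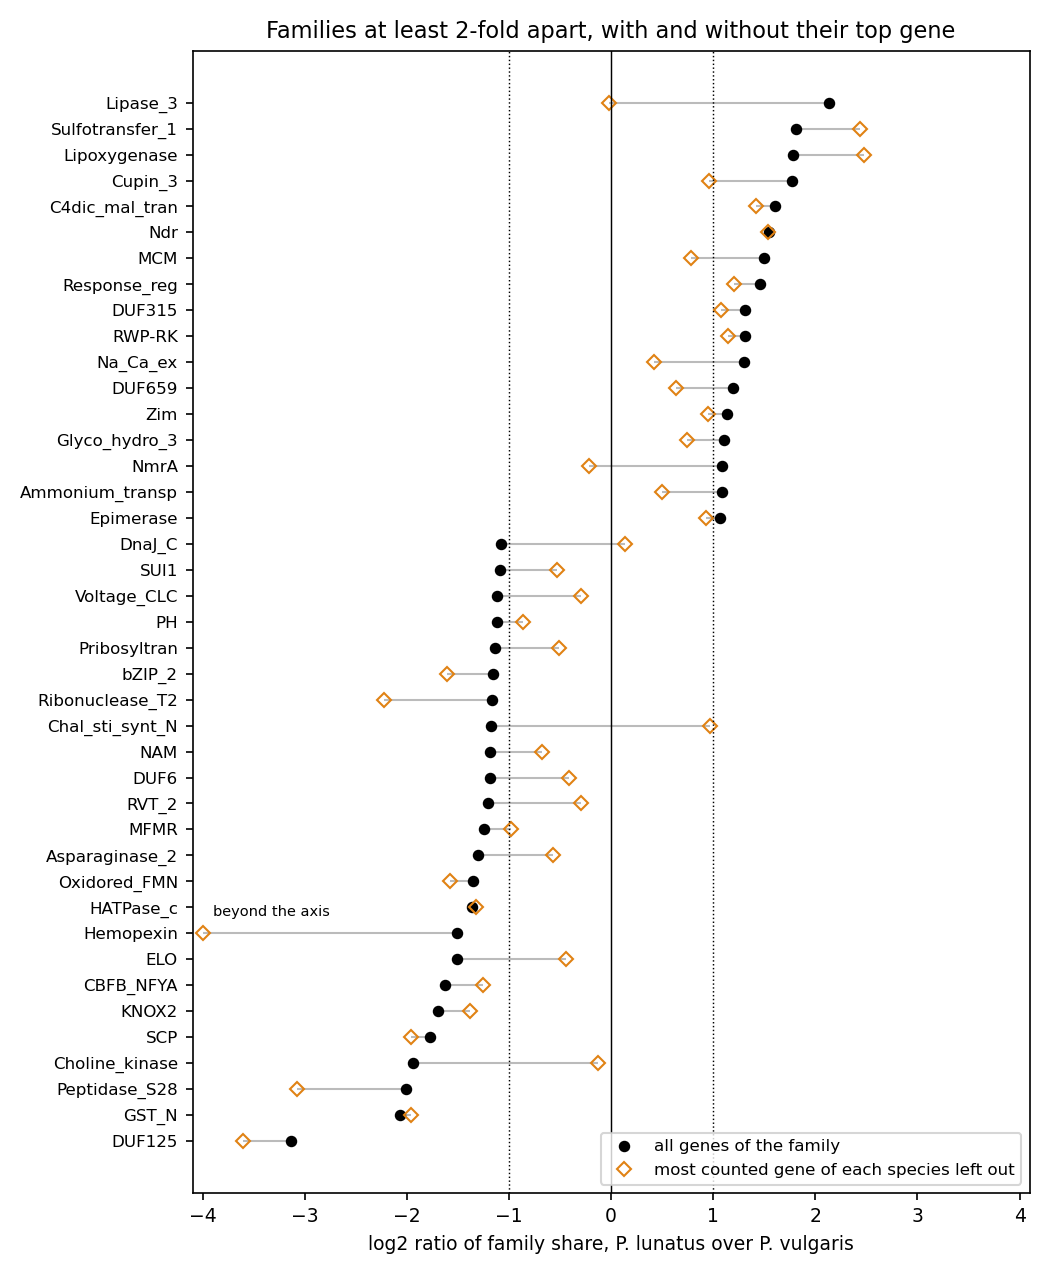
Log2 ratio of family share, P. lunatus over P. vulgaris, for the 41 families at least 2-fold apart, with all genes (black circles) and with the most counted gene of each species left out (open diamonds). Dotted lines mark 2-fold. GST_N and HATPase_c hardly moved, Lipase_3 came to -0.02 and DnaJ_C crossed 0, and Hemopexin without its first gene lies beyond the axis.

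The other families at least 2-fold apart were mostly small, and are given here although they fall outside the rule for named families. Choline_kinase was 3.83-fold and ELO, the fatty acid elongases, 2.85-fold lower in P. lunatus, and both lost their call without the most counted genes (adjusted p = 0.455 and 0.147). DUF125, the vacuolar iron transporters, was 8.77-fold lower, at 0.000623 ± 0.00024% against 0.00554 ± 0.000312%. SCP, the domain of PR-1 defence proteins, was 3.42-fold lower (log2 ratio -1.77 ± 0.45, adjusted p = 0.00709), or -1.14 without P. vulgaris replicate 1. Asparaginase_2, Ribonuclease_T2, PH, the chloride channels of Voltage_CLC and the initiation factor SUI1 were lower by log2 ratios of -1.30, -1.16, -1.12, -1.11 and -1.09, but SUI1 was higher by 0.26 in TPM shares. The first gene of Asparaginase_2 held 61.2% of the family in P. vulgaris and 35.5% in P. lunatus.

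On the higher side, Cupin_3 was 3.42-fold, the anion channels of C4dic_mal_tran 3.05-fold, Ndr 2.93-fold and DUF315, the RopGEF activators of plant small GTPases, 2.49-fold higher in P. lunatus. RWP-RK, the family of the nitrate regulator NLP7, was 2.48-fold higher, with 0.0241 ± 0.00246% against 0.00971 ± 0.000414% (log2 ratio 1.31 ± 0.09, adjusted p = 2.99e-06), and NLP7 held 40.1% of it in P. lunatus. Glyco_hydro_3 was 2.15-fold higher, or 0.67 in log2 when merged with its C-terminal domain. DUF659, of transposase-like proteins, was 2.29-fold higher by counts but had a log2 ratio of -0.15 in TPM shares.

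Families with large ratios that stood in no role list included DUF6, Pribosyltran and DUF605. DUF6, small-molecule carriers such as WALLS ARE THIN 1, took 0.0502, 0.0509 and 0.0501% in P. lunatus, against 0.117, 0.101 and 0.125% in P. vulgaris (2.27-fold lower, log2 ratio -1.19 ± 0.08, adjusted p = 2.99e-06). The first P. vulgaris DUF6 gene, PHAVU_003G151700g, described only as a hypothetical protein, held 53.1% of its family. The first P. lunatus gene, described as WALLS ARE THIN 1, held 19.3%. Pribosyltran, phosphoribosyltransferases of nucleotide synthesis, took 0.0334, 0.0297 and 0.0293% against 0.0719, 0.0638 and 0.0681% (2.21-fold lower). DUF605 took 0.0720, 0.0706 and 0.0796% in P. lunatus, against 0.0444, 0.0438 and 0.0427% in P. vulgaris (log2 ratio 0.76 ± 0.06), and a gene described as a callose synthase held 72.5% of it there, with a log2 ratio of -0.33 without the most counted genes.

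Self-incomp_S1, small secreted proteins related to pollen self-incompatibility factors, was the family not tested, with 42 P. lunatus and 67 P. vulgaris genes and none expressed in any library. At the limit set by gene number, 29 families had exactly 5 genes in the smaller table and summed to between 0.537 and 0.556% of counts in P. lunatus and between 0.552 and 0.592% in P. vulgaris. The 47 values that fell 1 gene short summed to between 1.17 and 1.19% in P. lunatus and between 1.56 and 1.62% in P. vulgaris.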

How the data were processed

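Per the labels' protocols, RNA of detached first true leaves was extracted with TRIzol and RNeasy columns and made into libraries with the NEBNext Ultra kit. For each species the authors deposited a table of unscaled gene counts, beside gene lengths in bases and 1 domain family value per gene. HISAT2, featureCounts and DESeq2 are named, per the submitters' processing notes, without versions. Genome build, annotation release and strand setting: not given in the sources used here. No gene ID matched the RefSeq gene table used here, so no sequence is printed.

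From the deposited counts, family sums per library were tested with edgeR 4.0.16 (quasi-likelihood, R 4.3.3), with the total gene count as library size and no scaling factor. Families with at least 10 counts in at least 3 of 6 libraries were tested, 327 of 328. P-values were adjusted by Benjamini-Hochberg over all of them, and called below 0.05. SE is the size of the log2 ratio divided by the square root of the F statistic. Single values were compared by exact permutation over the 6 libraries. The script was tested on simulated counts.

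Replicates were distinct libraries: pairs within a species had correlations of log2 share between 0.993 and 0.996 and differed by more than counting error. Shared genes had a median length of 1785 bases in P. lunatus and 1830 in P. vulgaris.

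Named families are the 10 of highest mean share, the 10 largest ratios in each direction among called families with a mean share of at least 0.02% and no overlap, the 3 of highest share in each role list, and every family of the cyanogenesis list. The members and lists were chosen with earlier results of these data known. The lists of hormone, chromatin, RNA, primary metabolism, vesicle and mobile-element domains, the merged values and the other named families were chosen after the values were seen.

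Alternatives were TMM, DESeq2 1.42.0 size factors, a denominator of shared families only, limma 3.58.1 on log2 shares (pseudocount 0.5) and on TPM shares computed here from the deposited counts and lengths, ratios per annotated gene, leaving out the most counted gene, no filter, families of at least 10 genes, other limits for an expressed gene, a replicate block, and leaving out each library. DESeq2 was run as the authors' notes name it.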

Additional observations from a re-analysis of the deposited data

Results flagged for a closer look

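The integrase core domain of retroelements, named rve in the family column, was outside the shared families because it names 230 genes in the P. lunatus table and 0 in the P. vulgaris table. It was picked up as a signal in data that the comparisons above do not use: its genes took 0.000226, 0.000488 and 0.000502% of counts in the 3 P. lunatus control libraries, a mean of 0.000405%, and 1 gene was expressed in each. Outlying libraries were not tested for, since each group holds 3.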

How the results depend on the processing

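The number of families called ranged from 192 to 219 when 1 library was left out in turn, with 73 to 87 higher in P. lunatus and 119 to 132 lower, 16 to 18 of them at least 2-fold higher and 23 to 26 at least 2-fold lower. The difference in the percent of genes expressed ranged from -0.0979 to 0.709 points. Restricting the test to families of at least 10 genes left 145 families called, against 215. Of these, 12 were at least 2-fold higher, against 17, and 11 at least 2-fold lower, against 24. Many of the 2-fold lower families thus had fewer than 10 genes in a table. TMM gave 113 higher and 109 lower, DESeq2's size factors 116 and 113, and TPM shares 112 and 119. The median log2 ratio moved by 0.094 with TMM, 0.091 with DESeq2 and 0.056 with TPM shares. Over the alternatives for 107 named families, 22 ratios of families that were higher in P. lunatus and 26 of families that were lower changed sign. In 26 cases 1 or both fits called the family and in 22 neither did. Without the most counted gene of each species the log2 ratios were 0.97 for Chal_sti_synt_N, 0.46 for Cu_bind_like, -0.33 for DUF605, -0.022 for ABC_tran, 0.022 for Glyco_transf_8, 0.0033 for WRKY, 0.14 for DnaJ_C, 0.12 for E1-E2_ATPase, -0.16 for Fer2, -0.022 for Lipase_3, -0.43 for MatE, -0.22 for NmrA, -0.060 for Peptidase_C1, -0.50 for SHMT and -0.46 for adh_short. In TPM shares they were -0.0082 for ABC_tran, 0.14 for LRRNT_2, -0.13 for Lipase_GDSL, 0.49 for Actin, -0.15 for DUF659, 0.059 for GTP_EFTU, 0.33 for Histone, 0.20 for Mito_carr, 0.0049 for RRM_1, 0.26 for SUI1, -0.0047 for adh_short and -0.20 for p450. Per annotated gene they were -0.076 for ABC_tran, -0.15 for Fer2, 0.31 for Abhydrolase_1, 0.21 for Histone and 0.28 for NB-ARC. Merged values gave -0.21 for ABC_tran and -0.13 for Pkinase_Tyr. TMM and DESeq2 gave 0.056 and 0.053 for Abhydrolase_1, 0.048 and 0.044 for NB-ARC, and 0.074 and 0.070 for WRKY. Leaving out 1 library gave -0.067 to 0.21 for Fer2, -0.025 to 0.057 for HLH, -0.028 to 0.072 for Lipase_GDSL, -0.085 to 0.018 for NB-ARC and -0.12 to 0.087 for WRKY. The cause of these changes of sign was not tested. The numbers of the replicates gave no clear sign of pairing: deviations of same-numbered libraries correlated at -0.040, -0.25 and 0.22. With 3 libraries per species this cannot exclude a pairing. A fit with the replicate number as a block called 209 families, 81 higher and 128 lower. Among the named families it lost the calls of Chal_sti_synt_N (adjusted p = 0.0764) and 2OG-FeII_Oxy (0.0561). It called Mito_carr lower (log2 ratio -0.13, adjusted p = 0.037). Self-incomp_S1 had too few counts to be tested at this depth.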

Other observations

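A further 33 family values named at least 5 genes in the table of one species and fewer in the other, and their shares are given without a test. The values with the most P. lunatus genes were those of mobile elements, and their counts were low. Transposase_28 named 1018 genes in P. lunatus and 1 in P. vulgaris, with 0.00302 ± 0.000389% and 0.00196 ± 0.000577% of counts (SD, n = 3 each). Retrotrans_gag, the capsid-type protein of retrotransposons, named 467 genes in P. lunatus and 1 in P. vulgaris, with means of 0.00489% and 1.98e-05%. RVT_1, a reverse transcriptase, named 338 and 1, with 0.0196 ± 0.00186% in P. lunatus and 0.00154 ± 0.000201% in P. vulgaris, and between 19 and 21 of its P. lunatus genes were expressed in each library. Transposase_21 named 19 genes in P. lunatus, and these had no count in any library.

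Domains of chloroplast-encoded proteins also named fewer than 5 genes in P. vulgaris. Photo_RC, the D1 and D2 proteins of the photosystem II reaction centre, named 7 genes in P. lunatus with 0.112, 0.129 and 0.134% of counts, against 2 genes in P. vulgaris with no count. RuBisCO_large, the large subunit of Rubisco, named 6 genes with a mean of 0.00346% in P. lunatus and 3 with 8.07e-05% in P. vulgaris. Among nuclear families, Sigma70_r4, the sigma factors that direct the plastid RNA polymerase, named 4 genes in P. lunatus and 5 in P. vulgaris, with 0.0352, 0.0355 and 0.0403% against 0.0617, 0.0622 and 0.0636%. Aconitase, of the citrate cycle, named 6 and 4 and took 0.0720 ± 0.000607% in P. lunatus and 0.0802 ± 0.00391% in P. vulgaris. Hydrolase, a family of dehalogenase-like enzymes, named 6 and 2, with 0.0126 ± 0.000374% in P. lunatus and 0.00139 ± 0.000132% in P. vulgaris.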
